A study of Mus musculus with 8 samples.

Results

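The aryl hydrocarbon receptor (AhR) axis was examined as 7 of the 40840 genes in the deposited expression tables, namely Cyp1b1, Cyp1a1, Cyp1a2, Ahr, Ahrr, Tiparp and Arnt. The genes were taken by symbol, and all 7 passed the filter of at least 10 counts in total. They were chosen because Cyp1b1 had been seen to be much lower in treated cells of this same series. The values of Cyp1b1 are therefore given as a description with no p-value. It also enters counts and a ranking of called genes, which are descriptions too.

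RNA was sequenced from primary myofibroblastic hepatic stellate cells of the mouse (pMF-HSCs), the collagen-secreting cells into which vitamin A-storing liver stellate cells turn on plastic. The cells came from male C57BL/6J mice of 15 to 18 weeks, were sorted on retinol autofluorescence after a density gradient, and were cultured in serum-containing medium for 7 days. The control group received the vehicle DMSO (n = 4), and the OGTi group received 50 µM of OSMI-1 over 24 h (n = 4), an inhibitor of O-GlcNAc transferase (OGT), which attaches the sugar O-GlcNAc to nuclear and cytosolic proteins. The study describes 4 independent experiments, in which treated and control cultures of one replicate number were paired, and the comparison asks what OGT inhibition does to the transcriptome of these cells. All libraries therefore come from cells activated by culture, from 1 strain and 1 sex, with 1 inhibitor at 1 dose and time.

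AhR is a ligand-activated transcription factor of the basic helix-loop-helix PAS family, which waits in the cytosol with HSP90 chaperones and their partners. After binding a ligand such as a dioxin, a polycyclic hydrocarbon or a tryptophan derivative, it enters the nucleus, pairs with ARNT and binds DNA elements with the core GCGTG near its target genes. The classical targets encode the CYP1 enzymes, which oxidise hydrocarbons and oestrogens, together with AHRR and TIPARP, which restrain the receptor. CYP1B1 is the CYP1 enzyme best known from mesenchymal cells, while CYP1A2 is a hepatocyte enzyme.

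The DNA just before the start site is shown for 4 of the receptor's classical targets, so that the GCGTG core can be seen in place beside the measurements. Each line gives the 250 bases upstream of the start, from the RefSeq promoter table of GRCm38.p6, read 5′ to 3′ on the strand of the gene. Capitals mark every GCGTG, written CACGC where it lies on the opposite strand. Each sequence had 1 exact match in GRCm39, at chr17:80022491-80022740 on the minus strand for Cyp1b1, chr9:57604646-57604895 on the plus strand for Cyp1a1, chr13:74440451-74440700 on the minus strand for Ahrr and chr3:65435618-65435867 on the plus strand for Tiparp. The start sites are those of RefSeq and differ from the outer ends of the GENCODE genes given below, most for Cyp1a1, whose RefSeq start at position 57604896 lies inside the longer GENCODE gene.
Cyp1b1: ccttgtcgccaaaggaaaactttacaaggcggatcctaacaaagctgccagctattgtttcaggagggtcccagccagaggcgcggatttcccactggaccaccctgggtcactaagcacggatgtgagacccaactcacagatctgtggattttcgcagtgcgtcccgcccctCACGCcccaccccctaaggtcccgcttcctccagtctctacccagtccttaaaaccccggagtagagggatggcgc
Cyp1a1: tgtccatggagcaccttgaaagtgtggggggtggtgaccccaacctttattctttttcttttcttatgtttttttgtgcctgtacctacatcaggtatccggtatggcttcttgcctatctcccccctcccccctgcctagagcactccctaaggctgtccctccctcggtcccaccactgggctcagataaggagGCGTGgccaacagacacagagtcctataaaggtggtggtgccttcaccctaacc
Ahrr: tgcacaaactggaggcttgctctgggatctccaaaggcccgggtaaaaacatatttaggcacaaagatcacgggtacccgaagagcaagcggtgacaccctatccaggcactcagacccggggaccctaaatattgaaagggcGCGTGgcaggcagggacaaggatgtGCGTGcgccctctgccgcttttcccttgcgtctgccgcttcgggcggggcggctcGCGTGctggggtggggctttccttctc
Tiparp: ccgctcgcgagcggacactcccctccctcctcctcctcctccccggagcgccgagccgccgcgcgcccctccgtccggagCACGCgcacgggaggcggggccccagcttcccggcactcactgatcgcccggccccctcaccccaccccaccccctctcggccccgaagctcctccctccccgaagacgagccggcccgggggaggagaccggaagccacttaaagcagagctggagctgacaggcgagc

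Of the 7 genes, 6 had an entry in that table, and the other was Ahr. GCGTG was searched on both strands. It occurred once before Cyp1b1, on the opposite strand 76 to 72 bases upstream, and once before Cyp1a1, 54 to 50 bases upstream. Before Ahrr it occurred 3 times, and the match nearest to the start, 27 to 23 bases upstream, was also a match to the longer form TNGCGTG. Tiparp held 1 match on the opposite strand, 170 to 166 bases upstream, Arnt held 1, and Cyp1a2 held 0. Among 32536 distinct mouse promoter sequences of the same length, 28.3% held at least 1 GCGTG, 2.79% held at least 3, and 4.13% held a TNGCGTG. The sequence TATAAA, searched in the same way and present in 12.3% of all promoters, lay 30 to 25 bases upstream of Cyp1a1 and 29 to 24 bases upstream of Cyp1a2, and was not found in the other 4 windows. These matches describe letters in a short window and say nothing of binding.

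Libraries held 30068876 to 37372420 expected counts (RSEM estimates of the reads per gene), and 19035 to 20293 genes had a count in 7 of them. OGTi replicate 4 stood apart with 23746 detected genes, and results that rest on the fourth pair are also given without it. Of the markers of stellate cells, all 12 were expressed, with summed levels of 3710 to 6737 TPM (a transcript level scaled by gene length and depth) in control and 3080 to 7197 in OGTi. Endothelial markers were all under 1 TPM in every library. The hepatocyte sum ranged from 200.6 to 310.3 TPM in control and from 212.5 to 260.6 in OGTi, came mostly from Ass1, and had its defining marker Alb at a mean of 0.085 and 0.065 TPM, with Tat listed at 0. Macrophage markers summed to 50.18 to 188.7 TPM in control and 90.21 to 246.0 in OGTi, and those of cholangiocytes to 306.6 to 654.4 and 128.4 to 563.2. With edgeR and an adjusted p of at most 0.05, 8.13% of all genes tested were called higher and 10.2% lower. Of the 12 stellate markers, 2 were called lower and 0 higher, and their median log2 fold change was -0.50 beside 0.01 over all genes. These were Lrat at -1.78 (adjusted p 0.00232) and Pdgfrb at -1.68 (adjusted p 0.00154), and 9 of the 12 had a value below 0, among them Col1a1 at -0.85 and Col3a1 at -0.72, while Tagln had 0.53. At an unadjusted p under 0.05 in edgeR, 7 stellate markers were lower and 1 higher. DESeq2 called 4 lower and limma-trend on TPM 5, and both called 0 higher. Of the 8 macrophage markers, 1 was called, Cd68, which was higher by 1.5 (adjusted p 0.00154), and the other values ran from -1.23 (Clec4f) to 1.40 (Cd5l), with Lyz2, the main part of the sum, at 0.58. The median of the 8 was 0.18, and at an unadjusted p under 0.05 in edgeR 2 were higher and 0 lower. Of the 5 tested cholangiocyte markers, Sox9 was higher (3.03, adjusted p 0.00858, and 2.26 without pair 4, adjusted p 0.00888) and Krt19 lower (-0.66, adjusted p 0.0462), a call lost in 8 of 14 alternatives, among them each pair left out. Of the 6 tested hepatocyte markers only Cyp2e1 was called, higher, and of the 8 endothelial markers 0 were, also 0 at an unadjusted p under 0.05 and with DESeq2 or limma-trend. The part of these markers in the results on the receptor axis was not tested, and in bulk RNA fewer cells of a type and less RNA per cell cannot be told apart.

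In these cells Cyp1b1 was expressed in every control library and was far lower in every OGTi library, Ahrr and Cyp1a1 fell, and Ahr, Arnt, Tiparp and Cyp1a2 did not pass the test. At a Benjamini-Hochberg adjusted p of at most 0.05, over all 19963 genes tested with edgeR's quasi-likelihood test and the replicate number as a block, 3 of the 7 genes were called lower and 0 higher, against 10.2% called lower and 8.13% called higher of all genes. Because the genes were picked from this contrast, nothing is read from that count. Without Cyp1b1 it was 2 of 6. Groups did not overlap in scaled counts (counts corrected for library size and composition by TMM) for Cyp1b1, Ahr and Ahrr, all 3 lower in OGTi, where 12.0% of all genes showed such a separation downward. A total of 5 of the 7 genes were lower in all 4 pairs, as were 21.5% of all genes. Without Cyp1b1, 2 of 6 genes did not overlap and 4 of 6 were lower in all 4 pairs. Nothing is read from these counts either.

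**Figure D1:**
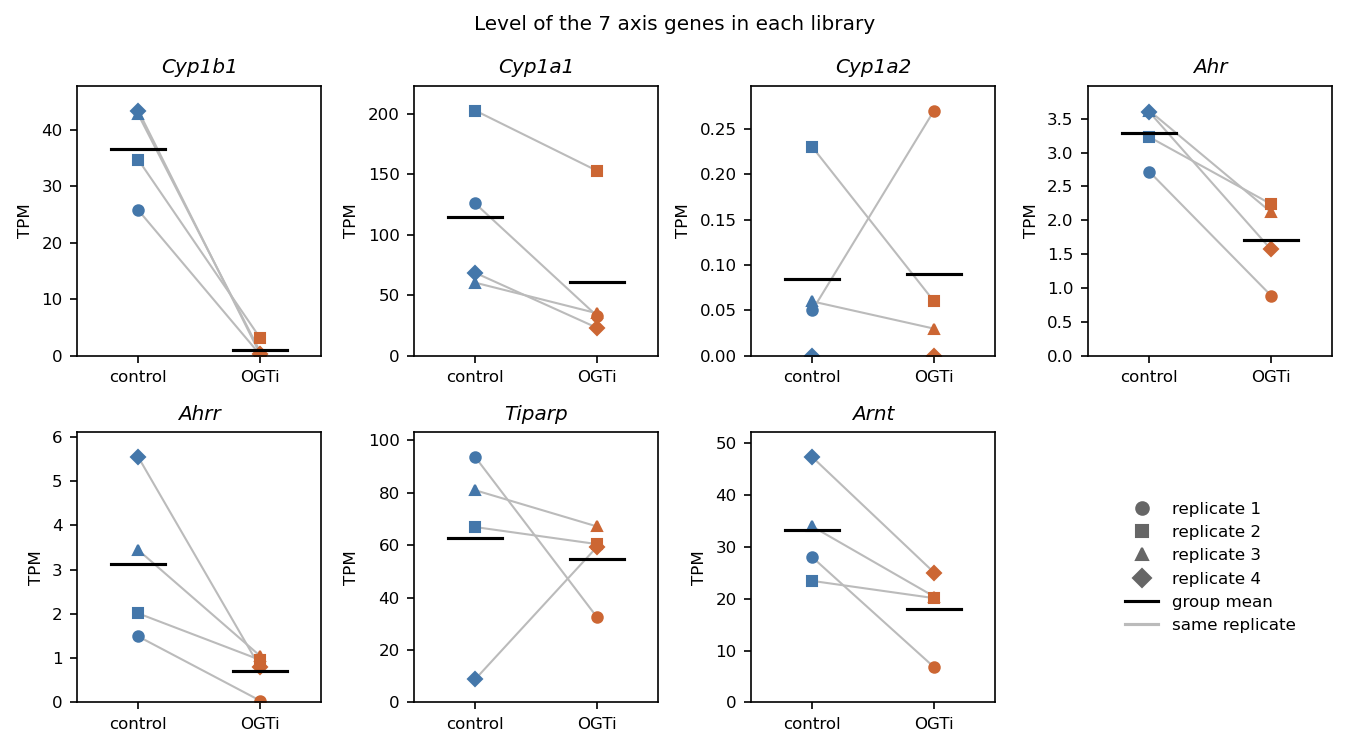
Level of each gene of the receptor axis in every library, in TPM on linear axes that start at 0, with a marker shape for each replicate, grey lines joining the pairs and black bars at the group means (n = 4). Cyp1b1 lay between 25.8 and 43.4 TPM in control and between 0.21 and 3.17 TPM in OGTi, while the groups of Cyp1a1, Arnt and Tiparp overlapped.

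Cyp1b1 lies on chr17:80008966-80022532 (GRCm39, minus strand) and encodes a microsomal P450 that hydroxylates oestradiol and polycyclic hydrocarbons and also handles retinoids. Its level in control replicates 1 to 4 was 25.8, 34.7, 42.7 and 43.4 TPM. In OGTi replicates 1 to 4 it was 0.21, 3.17, 0.75 and 0.33 TPM. The groups were far apart, since the highest treated library, replicate 2, lay well below the lowest control library.

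In read terms, OGTi replicates 1 to 4 held 26, 263, 74 and 30 counts of Cyp1b1, against 2419 to 3875 in the control libraries. Mean scaled counts went from 3107.8 ± 675.2 to 109.1 ± 125.4 (SD, n = 4), a ratio of 28.5. The fitted log2 fold change was -5.45 ± 0.56 (SE), and over the 4 pairs the log2 ratio of scaled counts was -6.35, -3.33, -5.44 and -6.72. The pairs thus differed among themselves, with an SD of 1.52, and the second was the least lowered. Over the 14 alternatives that were run the log2 fold change ranged from -6.14, without pair 2, to -4.32.

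Cyp1b1 had been picked for the size of its fall. Ranked by fitted log2 fold change among the 2043 genes called lower, it stood 9th. The 8 genes ahead of it were scarce, with mean control levels of 8.415 to 164.8 scaled counts, and 1 of them was another P450 gene, Cyp26a1 (-5.50 ± 0.64, SE). Just after it came Cav3, with -5.43 ± 1.03 from 30.23 scaled counts in control, and Dkk2, a secreted Wnt antagonist, with -5.14 ± 0.44 from 1048 scaled counts in control.

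The 7 protein-coding genes within 500 kb of Cyp1b1 were all tested and did not share a drop of that size. This window was chosen after values had been seen, so no p is given. Rmdn2, 8.3 kb away, had a log2 fold change of 0.06 ± 0.21 (SE), and Atl2, at 132.8 kb, had -0.21 ± 0.34. Hnrnpll, Galm and Srsf7 had values of -0.41, 0.10 and -0.06. Cdc42ep3, an effector of the small GTPase CDC42, had the highest value among the well counted neighbours, 0.68 ± 0.25, and Ttc39d had 3.03 ± 1.63 on a mean of 0.4817 scaled counts in control and 3.926 in OGTi.

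Cyp1a1 (chr9:57595211-57611107, plus strand) encodes the classical inducible hydrocarbon hydroxylase, used for decades as the readout of AhR activity. Its level in control replicates 1 to 4 was 126, 202.8, 60.5 and 68.7 TPM, and in OGTi replicates 1 to 4 it was 33.0, 153, 35.2 and 23.2 TPM. Replicate 2 was the highest in both groups, and the groups overlapped because OGTi replicate 2 exceeded 3 of the control libraries. Within pairs each treated library was lower, with log2 ratios of -1.40, -0.30, -0.41 and -1.27.

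Cyp1a1 fell by 0.84 ± 0.24 (SE) on the log2 scale, 1.8-fold, with an edgeR adjusted p of 0.0376. This call depends on the pairing, on single pairs and on the processing. It was lost without the replicate block (-0.68, adjusted p 0.444), with upper-quartile scaling (-0.72, adjusted p 0.054), with a filter of 1 CPM in 4 libraries (-0.78, adjusted p 0.0502), and with 6 libraries when pair 1, 3 or 4 was left out (adjusted p 0.0925, 0.0608 and 0.153). Leaving out pair 2 kept it.

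The make-up of CYP1 message differed between groups. The TPM ratio of Cyp1a1 to Cyp1b1 was 4.89, 5.85, 1.42 and 1.58 in control replicates 1 to 4, and 157, 48.3, 47.0 and 70.3 in OGTi replicates 1 to 4. Cyp1b1 made up 17.0%, 14.6%, 41.3% and 38.7% of the summed TPM of Cyp1a1, Cyp1a2 and Cyp1b1 in the control libraries, and 0.627%, 2.03%, 2.08% and 1.40% in the OGTi libraries. Both measures separate the groups completely, and both are descriptions because they contain Cyp1b1.

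Cyp1a2 (chr9:57584196-57590986, minus strand), the neighbour of Cyp1a1 and in liver an enzyme of hepatocytes, was barely detected. Control replicates 1 to 4 held 2, 9, 2 and 0 counts and OGTi replicates 1 to 4 held 13, 2, 1 and 0, where a count of 0 allows up to 3 counts. No library exceeded 0.27 TPM. The log2 fold change of 0.14 ± 1.60 (SE, edgeR adjusted p 0.965) has an error far larger than itself, and a difference was not detectable at this depth.

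**Figure D2:**
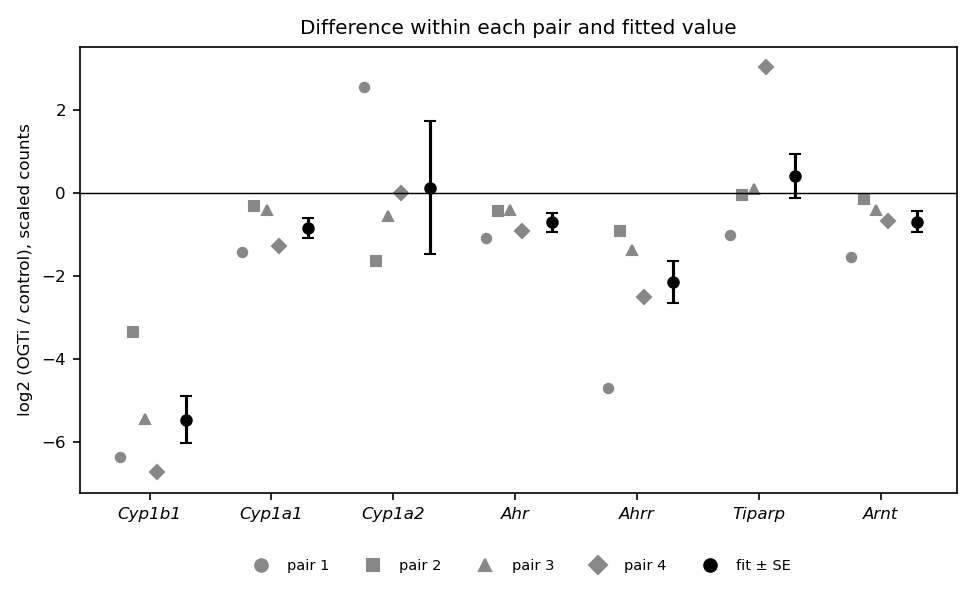
Log2 ratio of OGTi over control in each of the 4 replicate pairs, from scaled counts, for each gene of the axis, with a line at 0 and the fitted log2 fold change ± SE as a black point. All 4 pairs lie below 0 for Cyp1b1, Cyp1a1, Ahr, Ahrr and Arnt, and the fourth pair of Tiparp lies at 3.04.

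Ahr (chr12:35547973-35585057, minus strand) encodes the receptor itself and was expressed at a low level. Control replicates 1 to 4 measured 2.72, 3.23, 3.62 and 3.60 TPM, and OGTi replicates 1 to 4 measured 0.89, 2.24, 2.12 and 1.57 TPM. The groups did not overlap, and each treated library was below its paired control. The lowest of the 8 was OGTi replicate 1.

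The log2 fold change of Ahr was -0.70 ± 0.24 (SE) with an edgeR adjusted p of 0.0747, so it did not pass the threshold. It passed with library totals in place of TMM (-0.89, adjusted p 0.0326), a scaling that put the median of all genes at -0.19, and with DESeq2 (-0.65, adjusted p 0.0481). Removing each library's trend on transcript length moved it the other way, to -0.42 (adjusted p 0.209). Ahr was the longest of the 7, with a mean effective length of 5209 bases against a median of 2626 over all genes tested. Whether its length had a part in this move was not tested. The pairwise log2 ratios were -1.08, -0.42, -0.40 and -0.91.

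Arnt (chr3:95341365-95404551, plus strand), the nuclear partner that AhR shares with the hypoxia-inducible factors, was about an order of magnitude more abundant than Ahr. Its level was 28.0, 23.4, 33.9 and 47.3 TPM in control replicates 1 to 4 and 6.79, 20.1, 20.4 and 25.0 TPM in OGTi replicates 1 to 4. The groups overlapped, with OGTi replicate 4 above control replicate 2. All 4 pairs were lower (-1.52, -0.14, -0.39 and -0.67 in log2 ratio), pair 1 by far the most.

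For Arnt the fit gave -0.68 ± 0.26 (SE) with an edgeR adjusted p of 0.0975, which did not pass. Scaling by library totals gave -0.87 (adjusted p 0.0403), and removing the length trend gave -0.40 (adjusted p 0.169). Without pair 1 the log2 fold change was -0.40 as well. The TPM ratio of Arnt to Ahr ran from 7.25 to 13.1 in control and from 7.63 to 15.9 in OGTi, ranges that overlap. In the GENCODE annotation the gene Gm42672 overlaps Arnt on the same strand. The transcripts counted here carry RefSeq identifiers, and whether any reads were divided between Arnt and Gm42672 was not tested.

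Ahrr (chr13:74359237-74440462, minus strand) encodes the AhR repressor, a target of the receptor that competes with it for ARNT. Control replicates 1 to 4 measured 1.49, 2.01, 3.44 and 5.54 TPM, and OGTi replicates 1 to 4 measured 0.04, 0.96, 1.05 and 0.79 TPM. The groups did not overlap, and OGTi replicate 1 held only 4 counts of this gene. The control libraries themselves spread widely, which is seen in their mean of 3.12 ± 1.81 TPM (SD, n = 4) against 0.71 ± 0.46 in OGTi.

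Ahrr fell by 2.13 ± 0.51 (SE) on the log2 scale, 4.39-fold, with an edgeR adjusted p of 0.0163, and was lower in 4 of 4 pairs (-4.69, -0.91, -1.37 and -2.50). Next to Cyp1b1 it had the lowest log2 fold change of the 7. The call was lost without the replicate block (-1.87, adjusted p 0.0924) and without pair 4 (-1.97, adjusted p 0.0909). Relative to the receptor, the TPM ratio of Ahrr to Ahr was 0.548, 0.622, 0.95 and 1.54 in control replicates 1 to 4 and 0.0449, 0.429, 0.495 and 0.503 in OGTi replicates 1 to 4. Repressor message was thus lower relative to receptor message in every OGTi library than in any control library.

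Tiparp (chr3:65435320-65463365, plus strand) encodes a mono-ADP-ribosyltransferase, also known as PARP7, that is induced by AhR and modifies it. Its level in control replicates 1 to 4 was 93.6, 66.9, 80.9 and 8.84 TPM, and in OGTi replicates 1 to 4 it was 32.5, 60.4, 67.1 and 59.4 TPM. Control replicate 4 was far below all the other libraries. The groups overlapped, and the log2 ratios of scaled counts in the pairs were -0.99, -0.04, 0.10 and 3.04.

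No direction can be given for Tiparp. The log2 fold change was 0.42 ± 0.54 (SE, edgeR adjusted p 0.654), and it turned to -0.30 (adjusted p 0.537) without pair 4.

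Among the 7 genes the order of mean levels in control was Cyp1a1 (114.5 TPM), Tiparp (62.6), Cyp1b1 (36.6), Arnt (33.1), Ahr (3.29), Ahrr (3.12) and Cyp1a2. Neighbours in this order overlapped in range, except that Arnt lay above Ahr and Ahrr above Cyp1a2 in every control library. In OGTi the order was Cyp1a1 (61.1), Tiparp (54.8), Arnt (18.1), Ahr (1.71), Cyp1b1 (1.12), Ahrr (0.71) and Cyp1a2. The OGTi mean of Cyp1b1 was carried by replicate 2, the only OGTi library in which it lay above Ahr (3.17 against 2.24 TPM). In OGTi replicates 1, 3 and 4 Cyp1b1 was at 0.21, 0.75 and 0.33 TPM, below Ahr at 0.89, 2.12 and 1.57 TPM, and in replicates 3 and 4 it was below Ahrr as well.

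The other cytochrome P450 genes placed these values in their family. Of 97 further genes with a Cyp symbol, 37 passed the count filter, and 6 of these rose and 2 fell, 21.6% against 18.4% of all genes in either direction. Both that fell encode enzymes that clear retinoic acid. Cyp26b1 went from 21.8 ± 2.93 to 1.07 ± 1.01 TPM (SD, n = 4) and had a log2 fold change of -4.38 ± 0.40 (SE, edgeR adjusted p 0.000242). Cyp26a1 went from 5.57 ± 2.32 to 0.128 ± 0.174 TPM, with -5.50 ± 0.64 (adjusted p 0.000588). The rises included Cyp3a13 (2.00 ± 0.36, adjusted p 0.00441), Cyp4f13 (1.07 ± 0.22, adjusted p 0.00852) and Cyp2r1, a vitamin D 25-hydroxylase (1.43 ± 0.34, adjusted p 0.0169). Cyp2e1, a hepatocyte enzyme that metabolises ethanol, and Cyp4x1 rose by 3.98 ± 0.76 (adjusted p 0.00591) and 2.47 ± 0.55 (adjusted p 0.0121), both from and to means under 1 TPM. The median log2 fold change of the 37 genes was 0.04, beside 0.01 over all genes. Without pair 4 the 8 changed genes became 5, with Cyp4x1 (adjusted p 0.0639) and Cyp2r1 (0.0673) among those lost. Cyp2r1 was also lost without pair 1 (0.0631) and by limma-trend on TPM (0.0621 with 1 added and 0.0595 with 0.1 added), and Cyp4f13 without pair 3 (0.0746). The balance of directions depended on the method, since limma-trend on TPM called 6 P450 genes higher and 7 lower with 1 added, and 6 and 6 with 0.1 added.

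**Figure D3:**
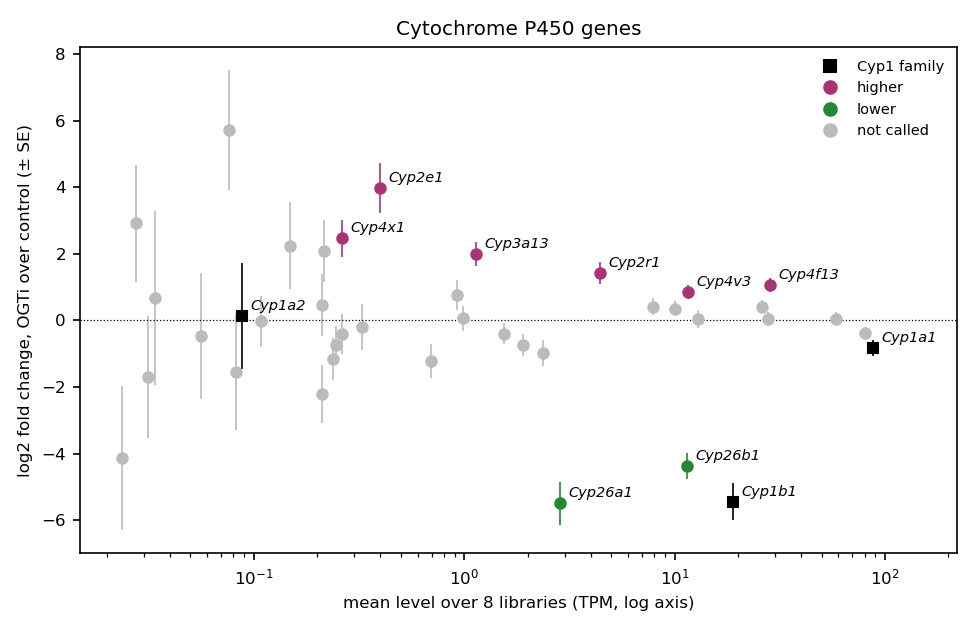
Log2 fold change (± SE) against mean level over the 8 libraries in TPM on a log axis, for the tested cytochrome P450 genes, with the Cyp1 family as squares. Cyp1b1 lies with Cyp26a1, Cyp26b1 and the scarce, uncalled Cyp4f39 (-4.14 ± 2.17) at the bottom, apart from Cyp1a1 at -0.84 and Cyp1a2 at 0.14.

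Other genes of the pathway and of processes around it, such as hypoxia targets and oestrogen metabolism, were taken from 9 lists. These held 99 symbols, of which 98 were in the tables and 90 were tested. Together they are called pathway genes below, and as a pool they did not move in one direction. Of the 90, 15 rose (16.7%, against 8.13% of all genes) and 6 fell (6.67%, against 10.2%), and the median log2 fold change was -0.00. Leaving out pair 3 reduced the 21 changed genes to 13. The balance of directions depended on the method, with 12 higher and 10 lower by limma-trend on TPM with 1 added, and 11 and 11 with 0.1 added.

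Of 12 further genes known as AhR targets, 3 rose (25.0%, against 8.13% of all genes) and 0 fell (against 10.2%), and 0 were lower at an unadjusted p under 0.05 in edgeR or by DESeq2 or limma-trend. Nqo1, a quinone reductase, went from 151.7 ± 35.8 to 579.5 ± 121.3 TPM (SD, n = 4) and rose by 2.27 ± 0.20 on the log2 scale (SE, edgeR adjusted p 0.00022). The glutathione transferases Gsta1 and Gsta2 rose by 3.02 ± 0.33 (adjusted p 0.000487) and 3.40 ± 0.83 (adjusted p 0.0184), although reads of these near-identical genes can be split wrongly between them. The 3 that rose are also known targets of NRF2, the oxidative stress factor. The gene of NRF2 itself, Nfe2l2, had a log2 fold change of 0.22 ± 0.18 (adjusted p 0.458). A part of NRF2 in these rises was not tested. The median of the 12 genes was 0.57. The call of Gsta2 was lost without pair 1 (adjusted p 0.0906) or 4 (0.0521).

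Of the 8 genes for receptor chaperones and turnover, 2 rose (25.0%, against 8.13% of all genes), both HSP90 genes. Hsp90aa1 did so by 1.72 ± 0.18 (SE, edgeR adjusted p 0.000395), from 812.9 ± 168 to 2172 ± 674.3 TPM (SD, n = 4), and Hsp90ab1 by 0.76 ± 0.16 (adjusted p 0.00924). The p23 cochaperone gene Ptges3, at 0.18 ± 0.21, did not pass. Among 10 coregulators, 1 was called, where 18.4% of all genes were called in either direction. It was Smarca4, the BRG1 remodelling ATPase, with a fall of 0.75 ± 0.19 (adjusted p 0.0237). That call was lost with the length trend removed (-0.48, adjusted p 0.117), with upper-quartile scaling (-0.62, adjusted p 0.061) and without pair 2, 3 or 4 (adjusted p 0.0608, 0.127 and 0.091). Hsp90ab1 lost its call without pair 3 (adjusted p 0.0561).

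Of the 7 tested relatives and partners of ARNT, 0 were called, against 18.4% of all genes, and 0 had an unadjusted edgeR p under 0.05 or were called by DESeq2 or limma-trend. The best expressed were Hif1a (-0.68 ± 0.62, SE, edgeR adjusted p 0.502) and Epas1 (-0.48 ± 0.24, adjusted p 0.208), and the value of Hif1a from -1.39 to 0.11 (without pair 1). Among 14 targets of these hypoxia factors, 3 rose (21.4%, against 8.13% of all genes) and 1 fell (7.14%, against 10.2%), with a median of 0.14. Ndrg1 rose by 3.08 ± 0.27 (adjusted p 0.00021), Slc2a1, the glucose transporter GLUT1, by 0.86 ± 0.18 (adjusted p 0.0102) and Ankrd37 by 1.44 ± 0.33 (adjusted p 0.0144). Adm, the gene of the vasodilator adrenomedullin, fell by 1.63 ± 0.22 (adjusted p 0.00129). The glycolytic targets Pgk1 and Ldha did not pass, at 0.14 and -0.24. Slc2a1 was lost without pair 3 (adjusted p 0.0736) and Ankrd37 without pair 1 or 2 (0.0503 and 0.0529), and both were lost without the replicate block (0.0763 and 0.0604).

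For enzymes that make tryptophan-derived ligands, 8 of 10 genes were tested and 2 were called (25.0%, against 18.4% of all genes in either direction). The first enzymes of the pathway were scarce, with Tdo2, Ido1 and Ido2 each under 1 TPM in group mean. The kynurenine aminotransferase genes went in opposite directions. Kyat1 rose by 1.41 ± 0.28 (SE, edgeR adjusted p 0.00691), from 7.81 ± 0.913 to 17.0 ± 4.73 TPM (SD, n = 4), and Kyat3 fell by 1.41 ± 0.24 (adjusted p 0.00349), from 43.4 ± 6.29 to 13.4 ± 4.31 TPM.

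The 9 genes for P450 electron supply and for haem synthesis, binding or breakdown gave 3 rises (33.3%, against 8.13% of all genes) and 0 falls (against 10.2%), with a median of 0.33. In edgeR 0 were lower at an unadjusted p under 0.05, as with DESeq2 and limma-trend, and 2 of the 3 rises were lost without pair 3. Por, the reductase that feeds electrons to the CYP1 enzymes, had a log2 fold change of 0.07 ± 0.18 (SE, edgeR adjusted p 0.851). Hmox1, which breaks haem down, rose by 2.68 ± 0.25 (adjusted p 0.000277), Pgrmc1, a haem-binding partner of P450 enzymes, by 0.82 ± 0.18 (adjusted p 0.0124), and Alas1, the first enzyme of haem synthesis, by 0.69 ± 0.21 (adjusted p 0.0427). Of 10 tested genes for oestrogen metabolism and its receptors, 1 was called, where 18.4% of all genes were called in either direction. It was Hsd17b12, which rose by 0.74 ± 0.20 (adjusted p 0.0273). Limma-trend on TPM called 0 of these 10 genes higher and 2 lower. Without pair 3 the calls of Pgrmc1, Alas1 and Hsd17b12 were lost (adjusted p 0.0767, 0.24 and 0.0596), those of Alas1 and Hsd17b12 also without pair 2 (0.0916 and 0.0751) or 4 (0.0656 and 0.0697), with library totals (0.112 and 0.0893) and by limma-trend on TPM with 1 added (0.201 and 0.103) or 0.1 added (0.198 and 0.105). Hsd17b12 was lost without the replicate block as well (0.0518).

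Of 12 tested relatives of Tiparp, the mono-ADP-ribosyltransferases, and enzymes that erase their mark, 5 were called, 41.7% against 18.4% of all genes. A total of 3 fell (25.0%, against 10.2%) and 2 rose (16.7%, against 8.13%), and the median log2 fold change was -0.10. Parp11, Parp9 and Parp14 fell by 1.88 ± 0.31, 1.75 ± 0.33 and 2.12 ± 0.47 (SE, edgeR adjusted p 0.00274, 0.00591 and 0.0114). Parp9 and Parp14 are known as interferon-stimulated genes. Parp3 and the eraser Macrod2 rose by 0.69 ± 0.20 and 1.41 ± 0.39 (adjusted p 0.0393 and 0.031). Parp14 lost its call without pair 4 (adjusted p 0.0716) and Parp9 and Macrod2 without the replicate block (0.0618 and 0.227). Parp3 was lost without pair 1, 2 or 3 (0.0673, 0.11 and 0.122) and Macrod2 without pair 1, 3 or 4 (0.102, 0.138 and 0.0894). Parp3 was also lost with library totals (0.128) and by limma-trend on TPM (0.163 with 1 added and 0.167 with 0.1 added), and Macrod2 by the latter with 0.1 added (0.0763). Limma-trend called 1 gene of the list higher and 4 lower with 1 added, and 0 and 5 with 0.1 added.

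**Figure D4:**
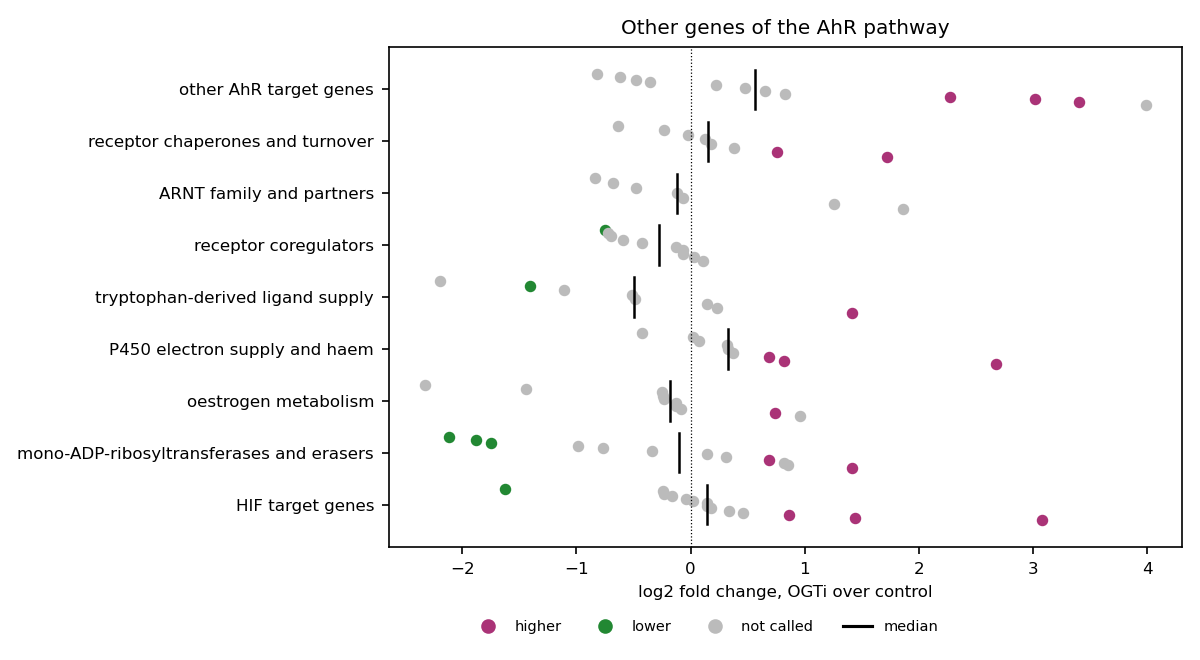
Log2 fold change of each tested gene in the 9 lists around the receptor axis, coloured by its call at an adjusted p of at most 0.05, with a bar at the median of each list. The medians lie between -0.50 for ligand supply and 0.57 for the other AhR target genes.

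Patterns most like that of Cyp1b1 were sought among 12529 genes with a mean of at least 1 CPM (counts scaled by library total). For the correlations log2 CPM was scaled with TMM and had a prior count of 2. Over the 8 libraries Pearson's r of log2 CPM was highest for Afap1l2 (0.998), LOC118567479 (0.996), Trib2 (0.995), LOC118568416 (0.994) and Lmo7 (0.993). These libraries fall into 2 groups, which all such genes share as points, and of these 5 genes 2 (Afap1l2 and LOC118567479) were also among the 5 highest on a TPM scale. For deviations from the group means the highest were Synj2 (0.990), Afap1l2 (0.983), Casp9 (0.982), Smad3 (0.980) and Tsc22d4 (0.975), and of these only 1, Synj2, was also among the 5 highest on a TPM scale. Within the axis, the same measure over deviations was 0.751 for Ahr, 0.604 for Ahrr, 0.600 for Cyp1a1, 0.352 for Arnt and -0.054 for Tiparp. These are descriptions over 8 libraries, chosen as the extremes of many genes.

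**Figure D5:**
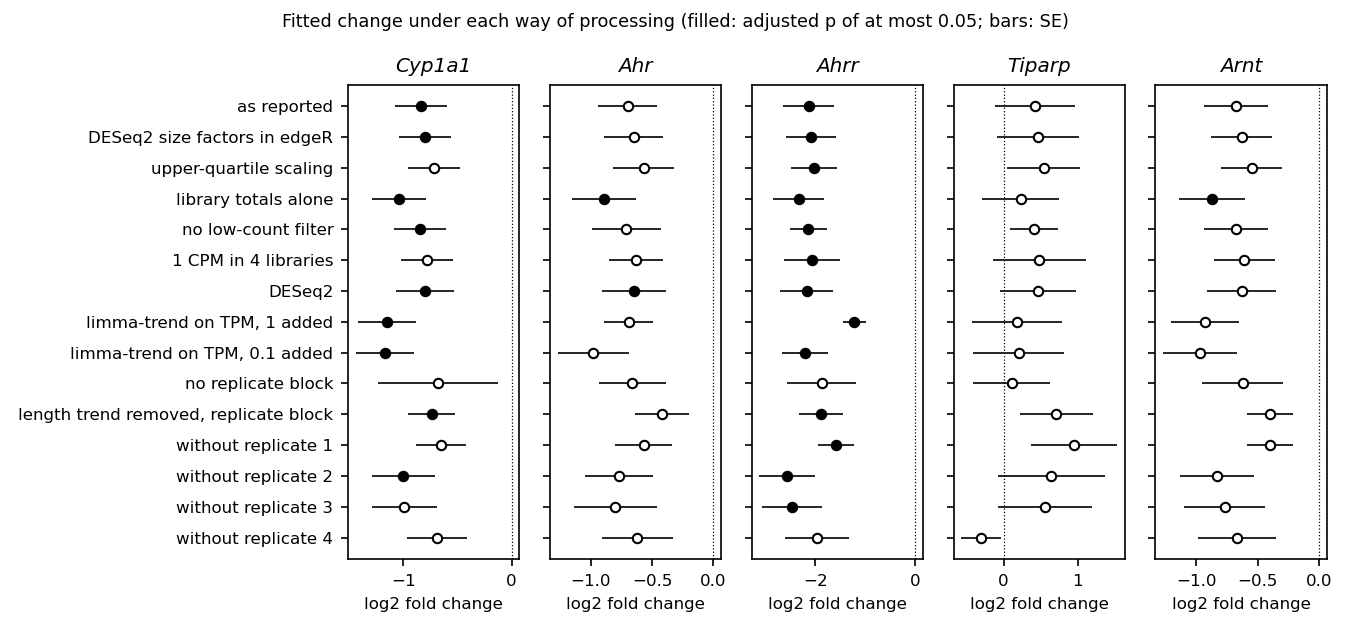
Log2 fold change (± SE) of Cyp1a1, Ahr, Ahrr, Tiparp and Arnt as reported, under each processing alternative and with each pair left out, filled where the adjusted p was at most 0.05. Ahrr stayed between -2.56 and -1.22, and Tiparp crossed 0 when pair 4 was left out.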

How the data were processed

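RNA-seq was analysed in 8 libraries of pMF-HSCs, 4 control and 4 OGTi, grouped by their titles. Libraries were stranded and made after oligo dT enrichment. Per the submitters' processing notes the authors used Bowtie2 2.3.5.1, RSEM 1.3.1 and DESeq2 1.36.0 with the mm39 (GRCm39) genome. The deposited expected counts are RSEM estimates per gene, and the deposited TPM values scale them by the effective length, in bases, that the authors' tables also give. Transcripts in these tables carry RefSeq identifiers, although GENCODE is the annotation given in the methods. A further deposited table holds the authors' fold changes and p-values with 16 columns of per-sample values, and none of it was used.

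Expected counts were rounded and tested with edgeR 4.0.16 in R 4.3.3 (TMM, glmQLFit, glmQLFTest) for the 19963 genes with at least 10 counts in total, with the replicate number as a block. P-values were adjusted by Benjamini-Hochberg over all genes tested. The biological coefficient of variation was 0.342. The SE was derived from the log2 fold change and the F statistic. The block follows the study's methods, which pair samples by replicate. Deviations from the group means correlated across genes at 0.213 to 0.436 for libraries of the same number and at -0.494 to 0.289 for others. The fit was also run on simulated data without replicate effects, and no result given here rests on that run. Totals of 30068876 to 37372420 counts per library leave the spread between cultures as the main error for all but the scarcest genes, and the limit given for a count of 0 covers counting error only.

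The genes and lists were chosen with earlier results of these data known. Named were the 7 genes of the axis, up to 3 called genes per direction in each list (or the best expressed 2 where none was called), the 5 P450 rises and falls of lowest p, the genes most like Cyp1b1 and the next 2 falls after it. Other genes without a call, and cell type markers, are named as values of their lists and were chosen after their values were seen. Alternatives were other scalings and filters, DESeq2 1.42.0, limma-trend on log2(TPM + 1) or log2(TPM + 0.1) (limma 3.58.1), a length-trend offset, no block, and each pair left out. Gene coordinates are from a GENCODE annotation of GRCm39.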

Additional observations from a re-analysis of the deposited data

Results flagged for a closer look

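In 7 of 74 groups of 4 libraries, 1 library lay apart from the other 3 by Dixon's criterion, where chance gives about 1 group in 20, or 3.7 of 74. All values are scaled counts. OGTi replicate 2 held 8307 for Cyp1a1, against 1409 to 2407 in the other OGTi libraries. OGTi replicate 1 held 13.31 for Cyp1a2, against 0 to 2.233. For Parp3 OGTi replicate 1 was high at 9029, against 7605 to 7818, and for Parp11 it was low at 191.5, against 328.3 to 345.4. Cyp2r1 was set apart in both groups, by control replicate 4 at 25.05 (others 77.05 to 82.87) and by OGTi replicate 1 at 240.7 (others 140.1 to 154.1). OGTi replicate 2 held 326.1 for Cyp26b1, against 72.36 to 109.6, and this was also the OGTi library with the most Cyp1b1.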

How the results depend on the processing

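Over 14 alternatives Cyp1b1 kept its direction, at -6.14 to -4.32. Scaling moved the median over all genes tested, on the log2 scale, from 0.01 to 0.13 (upper quartile) or -0.19 (library totals), and the genes called went from 1623 higher and 2043 lower to 2051 and 1732 or to 1256 and 2911.

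Of the 7 genes of the axis, 3 were called, and the count was 5 with library totals, 1 with no replicate block, and 1 to 3 with a pair left out. Without Cyp1b1 the 2 calls became 1 with upper-quartile scaling, 4 with library totals, 1 with a filter of 1 CPM in 4 libraries, 0 with no replicate block, and 0 to 2 with a pair left out. The call of Cyp1a1 was lost with upper-quartile scaling (-0.72, edgeR adjusted p 0.054), with the CPM filter (-0.78, adjusted p 0.0502) and with no replicate block (-0.68, adjusted p 0.444), and the values without a pair ran from -1.0 to -0.65. Ahrr lost its call with no replicate block (-1.87) and ran from -2.56 to -1.59 without a pair. Ahr passed with library totals (-0.89) and DESeq2 (-0.65), and Arnt with library totals (-0.87). Cyp1a2 turned to -0.01 with library totals and with limma-trend on TPM plus 0.1, and without a pair it ran from -1.24 (without pair 1) to 1.24. It was not tested under the CPM filter. Tiparp ran from -0.30 (without pair 4) to 0.95, and Hif1a from -1.39 to 0.11 (without pair 1). The cause of these moves was not tested, except that leaving out a pair also leaves fewer samples.

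Counts with a pair left out ran from 1905 to 3124 genes changed (843 to 1433 higher, 1062 to 1744 lower), against 3666, 1623 and 2043 with all pairs. For pathway genes they were 13 to 20 changed, 8 to 12 higher and 4 to 8 lower, and for other P450 genes 5 to 8 changed, 3 to 6 higher and 2 to 2 lower. Limma-trend on TPM gave 3456 (1 added) or 3473 (0.1 added) genes lower, 10 or 11 pathway genes lower (beside 12 or 11 higher), 7 or 6 P450 genes lower, and with 1 added 13 P450 genes changed. Of the 30 genes that the naming rule gives in the pathway and P450 lists, 14 kept direction and call in each alternative that could test them, 15 lost the call in at least 1, and 1 reversed.

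Depth limits Cyp1a2, with 0 to 13 counts per library, and Ahrr in OGTi replicate 1, with 4 counts. With 4 pairs from 1 inhibitor and dose, effects of OGT inhibition and other effects of the compound cannot be told apart.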
